A study of Mus musculus with 8 samples.

Results

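The genes described here are P2ry1 and a set of purinergic signalling genes, which encode receptors for extracellular nucleotides and adenosine and the surface enzymes that interconvert those ligands. They were chosen by symbol from a list of 9, and 8 of the 9 had a row among the 15452 named genes of the table used, Adora2b being not analysed here. P2ry1 was put on the list because its read count rose under Norrin, so its values are a description and carry no test. The other 7 are P2ry2, P2ry6, P2rx4, P2rx7, Adora2a, Entpd1 and Nt5e. All 8 passed the filter on low counts.

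RNA was sequenced from 2 groups of 4 biological replicates of bEnd.3, an immortalised line of endothelial cells from mouse brain. The first group received vehicle, described for the series as PBS with BSA, although a treatment tag calls these cells untreated. The second received recombinant Norrin at 200 ng/ml for 24 h, starting 24 h after seeding. Norrin is a secreted protein that binds Frizzled-4 on endothelial cells and turns on beta-catenin signalling. The labels do not say what separated the replicates of this single line, so the p-values reflect only how much these cultures varied, which may be technical.

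Cells release ATP and UTP through channels and on injury, and the nucleotides act on neighbouring cells through G protein-coupled P2Y receptors and ATP-gated P2X channels. At the cell surface the ectonucleotidase CD39, encoded by Entpd1, converts ATP and ADP to AMP, and CD73, encoded by Nt5e, converts AMP to adenosine. Adenosine then acts on its own receptors, among them the one encoded by Adora2a. In endothelium, P2Y receptors that couple to Gq raise intracellular calcium and drive release of nitric oxide and prostacyclin, while CD39 limits platelet activation by removing ADP.

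The 4 vehicle libraries held 12463942 to 15220576 counts each and the 4 Norrin libraries 13445380 to 14905863. Levels below are CPM, a gene's count per unit of library total after TMM scaling, a scale on which 3 counts correspond to 0.193 to 0.241 CPM, a floor for counting error alone. All 9 listed endothelial markers, such as Cdh5 and Pecam1, had rows, and their summed level ran from 7292 to 7560 CPM in vehicle and 7081 to 7304 CPM in Norrin libraries. Of these 9, only Esam was called by edgeR, higher under Norrin (means of 445 and 551 CPM). Of 34 markers listed for 6 other cell types, 10 had rows, with a highest mean of 8.06 CPM. None of those that passed the filter on low counts was called by edgeR, and of the 5 astrocyte markers 0 had a row. The summed platelet and megakaryocyte markers, of which 2 of 5 had rows, ran from 7.20 to 11.0 CPM under vehicle and 7.005 to 9.75 CPM under Norrin. In bulk RNA, fewer cells with a transcript and less transcript per cell cannot be told apart.

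The promoter windows of P2ry1 and Entpd1 are shown because, of the 8 genes, these 2 had the Norrin libraries wholly above the vehicle libraries. Each window holds 250 bases before and 50 after a RefSeq transcription start, in the direction of transcription, from GRCm38.p6. The P2ry1 window is chr3:61002535-61002834 on the plus strand. Entpd1 has an upstream window, chr19:40612116-40612415, and a downstream one, chr19:40659520-40659819, both on the plus strand. Capitals mark GC boxes, the letters GGGCGG on either strand, to which Sp family factors bind.
P2ry1: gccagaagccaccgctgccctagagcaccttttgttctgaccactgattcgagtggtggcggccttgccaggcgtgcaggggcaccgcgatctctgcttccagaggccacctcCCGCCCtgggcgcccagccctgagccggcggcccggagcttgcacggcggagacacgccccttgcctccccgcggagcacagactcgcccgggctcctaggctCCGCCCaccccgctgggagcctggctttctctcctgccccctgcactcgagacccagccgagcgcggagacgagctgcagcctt
Entpd1 upstream: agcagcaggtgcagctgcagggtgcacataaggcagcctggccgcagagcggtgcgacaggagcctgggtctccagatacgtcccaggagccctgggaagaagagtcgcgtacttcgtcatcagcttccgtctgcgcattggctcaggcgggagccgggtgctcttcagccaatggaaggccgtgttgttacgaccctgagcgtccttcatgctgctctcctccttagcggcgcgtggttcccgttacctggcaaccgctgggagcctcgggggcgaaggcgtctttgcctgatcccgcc
Entpd1 downstream: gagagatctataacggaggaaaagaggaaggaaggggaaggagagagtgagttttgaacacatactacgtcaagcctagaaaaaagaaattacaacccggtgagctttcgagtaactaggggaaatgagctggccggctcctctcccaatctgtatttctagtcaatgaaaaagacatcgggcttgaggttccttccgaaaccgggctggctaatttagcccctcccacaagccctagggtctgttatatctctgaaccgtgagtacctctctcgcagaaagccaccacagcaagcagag

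The P2ry1 window held 2 GC boxes, which do not overlap, and the Entpd1 windows held 0, where 35.7% of 32851 mouse promoter windows of 300 bases held at least 1. Heptamers bound by TCF/LEF factors, the DNA-binding partners of beta-catenin, were also searched on both strands as CTTTG followed by AA, AT, TA or TT. None of these letters occurred in the 3 windows printed, against 16.9% of all windows, and no match says only that the letters are not in these windows. The P2ry1 window was 70.7% G and C, the upstream Entpd1 window 64.0% and the downstream one 48.7%, beside a median of 52.7%. Windows were found for 6 of the 8 genes, and 1 of their 9 windows, that of a second P2rx7 start, held a TCF/LEF heptamer. GC boxes stood in 6 of the 9 windows, among them those of P2ry2 and Nt5e, which did not pass, with 4 each. The P2ry2 windows overlap and hold the same boxes, and the Nt5e boxes overlap in pairs.

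P2ry1 encodes P2Y1, a Gq-coupled receptor for ADP. Its count was 35, 30, 55 and 29 in vehicle replicates 1 to 4, and 212, 218, 209 and 180 in Norrin replicates 1 to 4. On the CPM scale these were 2.79, 2.12, 3.54 and 2.33 under vehicle against 14.4, 15.9, 15.3 and 13.3 under Norrin. The lowest Norrin library lay well above the highest vehicle library, and the order of replicates differed between the groups. Means were 2.70 ± 0.628 and 14.7 ± 1.15 CPM (SD, n = 4 each), a fitted fold of 5.41. Relative to its mean, P2ry1 varied more under vehicle (coefficient of variation 23.3%) than under Norrin (7.79%). Counts were lower under vehicle (29 to 55 against 180 to 218), and how much of this difference is counting error was not tested. With each library left out in turn the fold ran from 5.04 to 6.08, the highest without vehicle replicate 3. GENCODE places a gene on the opposite strand over P2ry1, Gm37035, which has no row in the table used, and whether counting used strand is not given in the sources used here.

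**Figure D1:**
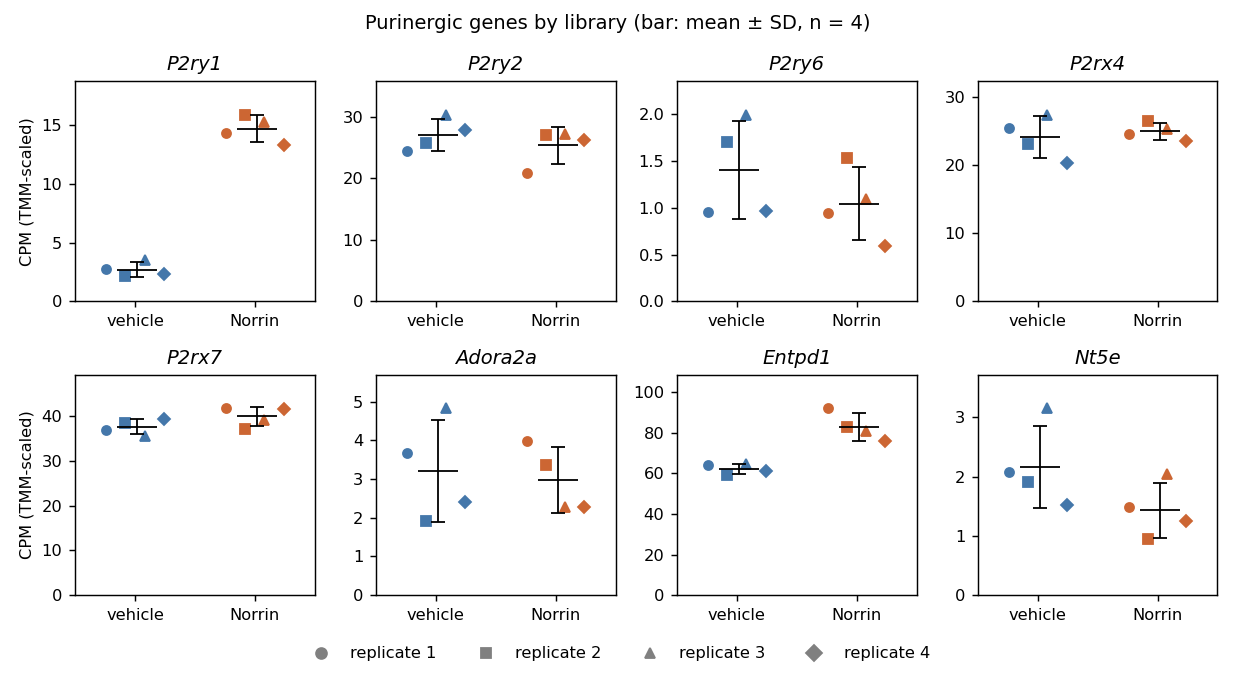
CPM of each purinergic gene (y axis, from 0) in 4 vehicle and 4 Norrin libraries, with marker shapes for the replicate number and a black bar for mean ± SD. P2ry1 lies at 2.12 to 3.54 CPM under vehicle and 13.3 to 15.9 CPM under Norrin, Entpd1 at 59.0 to 64.6 and 76.0 to 92.1 CPM, and the groups overlap in the other 6 genes.

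The other P2Y receptor genes on the list were P2ry2, encoding a Gq-coupled receptor for ATP and UTP, and P2ry6, encoding a UDP receptor. P2ry2 was at 24.4, 25.8, 30.4 and 27.9 CPM under vehicle and at 20.9, 27.1, 27.2 and 26.2 CPM under Norrin. The groups overlapped, with Norrin replicate 1 the lowest of the 8. The log2 fold change was −0.10 ± 0.11 (SE, 95% interval −0.32 to 0.13; edgeR adjusted p = 0.838). P2ry6 was low, at 0.958, 1.70, 1.99 and 0.964 CPM under vehicle and 0.948, 1.53, 1.10 and 0.590 CPM under Norrin. Its counts were 8 to 31 per library, and the interval of −1.30 to 0.41 on the log2 scale spans both directions (−0.44 ± 0.42 SE, edgeR adjusted p = 0.796).

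Levels of different genes can be compared only per length, for which the authors' group RPKM (read density per transcript length and library depth) was spread over the libraries in proportion to CPM. On that scale P2ry1 made up 9.74, 7.04, 9.67 and 7.34% of the summed RPKM of P2ry1, P2ry2 and P2ry6 in vehicle replicates 1 to 4. Under Norrin it made up 39.6, 35.7, 35.1 and 33.1%. The mean share was 8.45 ± 1.46% and 35.9 ± 2.73% (SD, n = 4 each), and P2ry2 had the highest RPKM of the 3 genes in every library. This shift rests on the gene chosen for its rise and is given without a test.

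**Figure D2:**
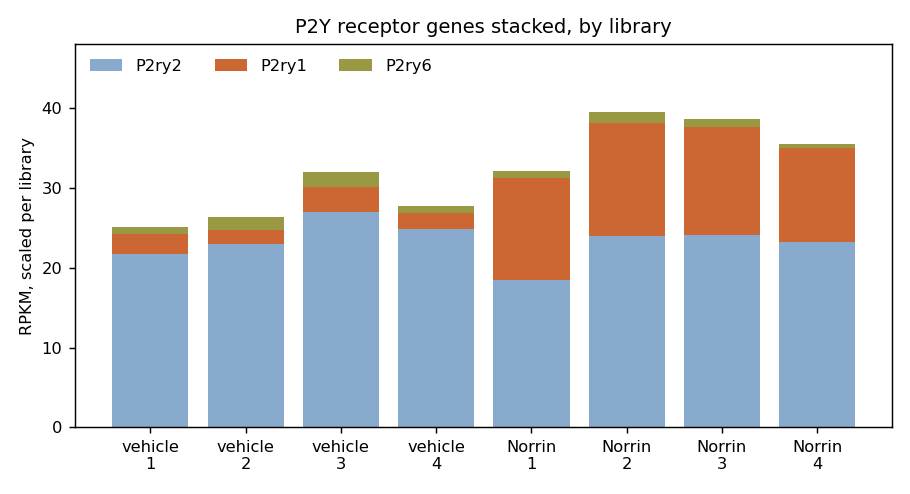
Stacked RPKM, scaled per library (y axis), of P2ry2, P2ry1 and P2ry6 in each of 8 libraries. The P2ry1 segment is 7.04 to 9.74% of the bar under vehicle and 33.1 to 39.6% under Norrin, and the P2ry2 segment is the tallest in every bar.

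P2X channel genes were among the more abundant of the set. P2rx7 encodes an ATP-gated channel that opens at high ATP and is best known from macrophages. It was at 37.0, 38.6, 35.7 and 39.5 CPM under vehicle and 41.8, 37.2, 39.3 and 41.7 CPM under Norrin, with overlapping groups. The difference was 0.09 ± 0.08 on the log2 scale (SE, 95% interval −0.09 to 0.26; edgeR adjusted p = 0.807). P2rx4 encodes an ATP-gated channel linked in endothelium to the response to shear stress. It was at 25.5, 23.2, 27.5 and 20.4 CPM under vehicle and 24.6, 26.5, 25.3 and 23.6 CPM under Norrin, and all Norrin values lay within the vehicle range. The interval was −0.18 to 0.27 on the log2 scale (0.05 ± 0.11 SE, edgeR adjusted p = 0.933). The macrophage and microglia markers with rows, 2 of 7, summed to 0.562 to 1.22 CPM under vehicle and 0.406 to 1.33 CPM under Norrin, and whether such cells add to P2rx7 was not tested.

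Entpd1 and Nt5e encode the 2 steps from ATP to adenosine at the cell surface. Entpd1 was at 64.0, 59.0, 64.6 and 61.4 CPM under vehicle and 92.1, 82.8, 80.9 and 76.0 CPM under Norrin. Every Norrin library lay above every vehicle library. Entpd1 rose 1.33-fold, from 62.3 ± 2.56 to 83.0 ± 6.71 CPM (SD, n = 4 each), or by 0.41 ± 0.07 on the log2 scale (SE, edgeR adjusted p = 0.000336). It passed in all 15 alternatives, with an adjusted p of at most 0.00353. GENCODE places the processed pseudogenes Gm16027 and Gm8783, and the sense-intronic gene AC166063.1, over Entpd1 on the same strand. None of these has a row in the table used, and whether their reads entered the Entpd1 count was not tested.

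Nt5e was at 2.07, 1.91, 3.15 and 1.53 CPM under vehicle and 1.49, 0.948, 2.05 and 1.25 CPM under Norrin. The groups overlapped, on 13 to 49 reads per library. Nt5e did not pass, at −0.60 ± 0.36 on the log2 scale (SE, 95% interval −1.33 to 0.13; edgeR adjusted p = 0.578). Per length, the ratio of Entpd1 to Nt5e was 27.1 to 53.2 over vehicle libraries and 52.3 to 116 over Norrin libraries, so the ranges overlap. Adora2a, encoding an adenosine receptor that couples to Gs, was at 3.67, 1.91, 4.82 and 2.41 CPM under vehicle and 3.99, 3.35, 2.27 and 2.29 CPM under Norrin. It overlapped between groups and did not pass (−0.11 ± 0.30 on the log2 scale, SE; 95% interval −0.73 to 0.51; edgeR adjusted p = 0.944).

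Of the 7 genes other than P2ry1, 1 rose, 0 fell and 6 did not pass (edgeR, adjusted p under 0.05). Over all 13666 tested genes 2.17% were called, 1.20% higher and 0.966% lower under Norrin. The CPM of the groups did not overlap for 1 of the 7, against 7.01% of all tested genes (3.43% with Norrin above and 3.58% with Norrin below). DESeq2 and limma-voom each called 1 of the 7 as well, and leaving out any 1 library left the count at 1. The median log2 fold change of the 7 was −0.10, beside 0.00 for all tested genes.

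**Figure D3:**
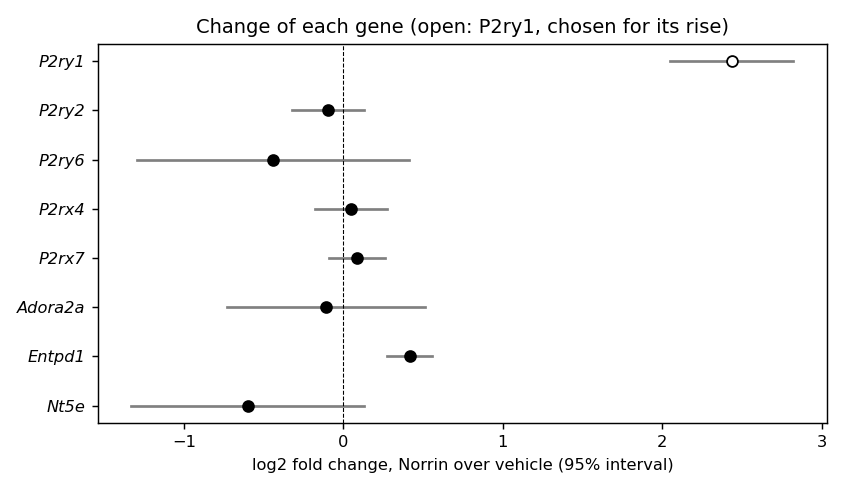
Log2 fold change of Norrin over vehicle (x axis) for the 8 genes, with lines for 95% intervals from the edgeR fit and an open point for P2ry1, which was chosen for its rise. Entpd1 lies at 0.41 with an interval of 0.27 to 0.56, and the intervals of the other 6 genes include 0.

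Levels per length were ordered by the RPKM in the authors' deposited table. Under vehicle the order was Entpd1 at 45.9, P2rx7 at 32.6, P2ry2 at 24.1, P2rx4 at 21.9, Adora2a at 2.58, P2ry1 at 2.36, P2ry6 at 1.35 and Nt5e at 1.21 RPKM. Entpd1, P2rx7 and the P2ry2 and P2rx4 pair stood apart from one another and from the 4 low genes. P2ry2 did not differ from P2rx4 beyond their spread, and neither did any neighbours among Adora2a, P2ry1, P2ry6 and Nt5e. Under Norrin, P2ry1 at 13.04 RPKM stood apart from its neighbours, P2ry2 at 22.4 above and Adora2a at 2.45 below. Entpd1 was then at 60.8, P2rx7 at 35.0, P2rx4 at 22.7, P2ry6 at 0.995 and Nt5e at 0.795 RPKM.

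**Figure D4:**
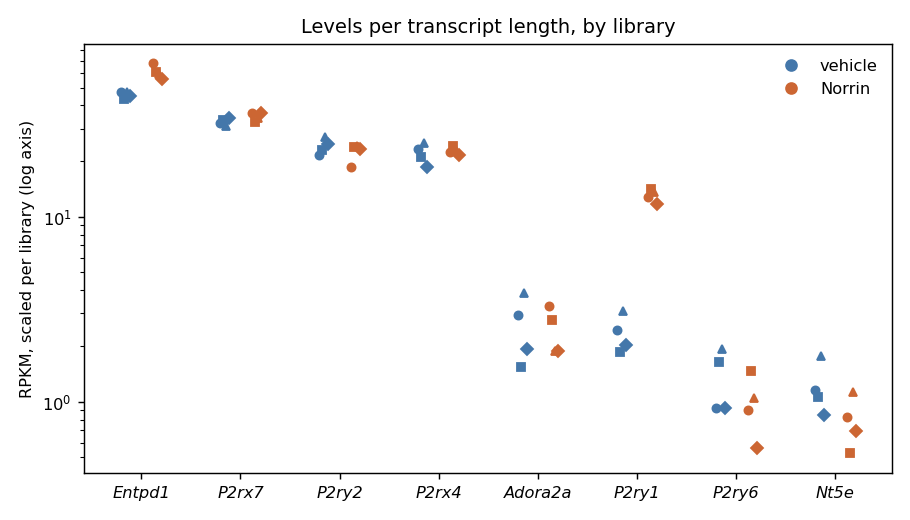
RPKM spread over the libraries (y axis, log scale) for the 8 genes in order of their vehicle level, with blue vehicle and orange Norrin points and marker shapes for the replicate number. P2ry1 lies at 1.86 to 3.10 RPKM among the low genes under vehicle and at 11.8 to 14.1 RPKM under Norrin, between P2ry2 and Adora2a.

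The wider pathway was read through 4 lists set by role, at a time when earlier results of these data were known. They held 113 entries, 83 with rows and 82 tested. Leaving P2ry1 out, 81 were tested, of which 2 rose and 2 fell, or 4.94% beside 2.17% of all genes, and the groups did not overlap for 14.8% beside 7.01%. The median log2 fold change of the 81 was −0.04. The number of calls ran from 2 to 8 with 1 library left out, the highest without Norrin replicate 4. That library lay nearest the vehicle libraries on the leading principal component of all genes.

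Among receptor genes, 9 of 20 listed had rows. Of the 8 tested beside P2ry1, edgeR called 0, beside 2.17% of all tested genes, and DESeq2 and limma-voom also called 0. The groups did not overlap for 2 of the 8, or 25%, beside 7.01% of all tested genes. An unadjusted p under 0.05 was found for 1 of the 8, beside 11.3% of all tested genes. That 1 was P2rx3, which encodes an ATP-gated channel best known from sensory neurons. It was at 3.35, 3.89, 4.76 and 3.45 CPM under vehicle and at 2.23, 2.19, 2.05 and 2.14 CPM under Norrin. The Norrin libraries all lay below the vehicle libraries, yet the gene did not pass (−0.85 ± 0.27 on the log2 scale, SE; edgeR adjusted p = 0.110). Over 15 alternatives its adjusted p ran from 0.0775 to 0.319. P2rx3 overlaps Ssrp1 on the opposite strand in GENCODE, whose mean was 403 ± 8.76 CPM in vehicle and 386 ± 15.4 CPM in Norrin libraries (SD, n = 4 each), and whether Ssrp1 reads entered the P2rx3 count was not tested. In the authors' deposited table the RPKM of Ssrp1 went the other way, from 204 to 222.

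The remaining receptor genes, P2rx5 and Gpr17, were named after their values were seen. P2rx5, another ATP-gated channel gene, was at 0.283 to 0.798 CPM under vehicle and 0.951 to 1.82 CPM under Norrin. These groups did not overlap, on 4 to 25 reads per library, and the gene did not pass (0.94 ± 0.46 on the log2 scale, SE; edgeR adjusted p = 0.445). Gpr17, an orphan receptor gene related to P2Y receptors and known from oligodendrocyte precursors, was at 10.9 to 16.4 CPM under vehicle and 9.75 to 13.6 CPM under Norrin (−0.12 ± 0.15 SE, edgeR adjusted p = 0.869). It overlaps Lims2 on the opposite strand in GENCODE, with means of 23.5 ± 2.29 CPM in vehicle and 22.3 ± 2.31 CPM in Norrin libraries (SD, n = 4 each), and without known strand reads of the pair cannot be told apart.

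Of 23 enzyme genes of nucleotide and adenosine metabolism, 16 had rows and all of these were tested. Entpd1 rose and 15 did not pass, so 6.25% were called beside 2.17% of all tested genes. The groups did not overlap for 3 of the 16, or 18.8%, beside 7.01% of all tested genes. The list's median log2 fold change was 0.05. The intracellular NTPDase genes Entpd4, Entpd5, Entpd6 and Entpd7 were at 0.10, 0.08, 0.14 and 0.11 on the log2 scale, with adjusted p from edgeR of 0.876, 0.931, 0.886 and 0.871. Pnp, encoding the phosphorylase that breaks down inosine, had means of 38.0 ± 2.37 CPM in vehicle and 45.1 ± 2.33 CPM in Norrin libraries (SD, n = 4 each). Its groups did not overlap and it did not pass (0.25 ± 0.08 on the log2 scale, SE; edgeR adjusted p = 0.151). Pnp overlaps Pnp2, a near copy with its own row, so its count is uncertain.

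Ak1, encoding adenylate kinase, which interconverts ATP, ADP and AMP, was named after its values were seen. It was at 17.5, 18.5, 21.5 and 18.1 CPM under vehicle and 12.997, 13.6, 16.1 and 12.9 CPM under Norrin. Its groups did not overlap, and it did not pass by edgeR (−0.45 ± 0.13 on the log2 scale, SE; adjusted p = 0.0639), while DESeq2 called it, as did edgeR without Norrin replicate 3. The AMP deaminase genes Ampd2 and Ampd3 were at 0.04 ± 0.06 and 0.04 ± 0.06 on the log2 scale (SE, edgeR adjusted p = 0.876 and 0.902). Nme1, a nucleoside diphosphate kinase gene with a near copy in Nme2, was at 0.02 ± 0.07 (SE, edgeR adjusted p = 0.964).

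Of 23 genes of ATP release and nucleoside transport, 15 had rows and 14 were tested. Of the 14, edgeR called 0, beside 2.17% of all tested genes, and DESeq2 and limma-voom also called 0. The groups did not overlap for 0 of the 14, beside 7.01% of all tested genes. An unadjusted p under 0.05 was found for 1 of the 14, beside 11.3% of all tested genes. Panx1, encoding a channel that releases ATP, and Slc29a1, encoding the main equilibrative nucleoside transporter, were at 0.09 ± 0.19 and −0.09 ± 0.12 on the log2 scale (SE, edgeR adjusted p = 0.930 and 0.876). Gja5, encoding connexin 40 of arterial endothelium, was at 234, 246, 233 and 198 CPM under vehicle and 276, 311, 313 and 201 CPM under Norrin. Norrin replicate 4 lay among the vehicle libraries and the other Norrin libraries lay above them. With all libraries Gja5 did not pass (0.27 ± 0.16 on the log2 scale, SE; edgeR adjusted p = 0.622), and without Norrin replicate 4 it was at 0.40 (adjusted p = 0.000216 by edgeR). Gja1, encoding connexin 43, Vdac1, encoding a mitochondrial anion channel, and Lrrc8c, encoding a volume-regulated channel subunit, were at −0.03, 0.07 and −0.12 on the log2 scale and did not pass (edgeR adjusted p = 0.952, 0.771 and 0.579).

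Of 47 genes of signalling below purinergic receptors, 43 had rows and all of these were tested. Among the 43, 1 rose, 2 fell and 40 did not pass, so 6.98% were called beside 2.17% of all tested genes. In all, 33 of 43 lay below 0, beside 48.7% of all tested genes, with a median log2 fold change of −0.05. An unadjusted p under 0.05 was found for 10 of the 43, beside 1548 of all 13666 tested genes (11.3%). The groups did not overlap for 7 of the 43, or 16.3%, beside 7.01% of all tested genes. Rgs16 encodes a GTPase-activating protein that shortens Gi and Gq signals. It was at 12.1, 22.2, 18.3 and 14.5 CPM under vehicle and 33.9, 31.6, 32.9 and 27.7 CPM under Norrin, with no overlap. Rgs16 rose 1.87-fold (0.90 ± 0.14 on the log2 scale, SE; edgeR adjusted p = 0.000261), and it passed with any 1 library left out.

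Ptgs1, encoding the cyclooxygenase COX-1 on the path to prostacyclin, was at 6.07, 7.50, 8.30 and 9.07 CPM under vehicle and 2.98, 3.65, 4.54 and 6.27 CPM under Norrin. The highest Norrin library overlapped the lowest vehicle library. Ptgs1 fell by 0.83 on the log2 scale (SE 0.22, edgeR adjusted p = 0.0438). Atp2b1, encoding the plasma membrane calcium pump PMCA1, was at 240, 227, 242 and 234 CPM under vehicle and 207, 207, 212 and 202 CPM under Norrin. It fell by 0.19 on the log2 scale (SE 0.05, edgeR adjusted p = 0.0262), with no overlap between groups. Ptgs1 kept its call without vehicle replicate 1 or Norrin replicate 4 (adjusted p up to 0.192 otherwise) and Atp2b1 without vehicle replicate 2 or Norrin replicate 3 or 4 (up to 0.110 otherwise).

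Several G protein and effector genes that act below purinergic receptors did not pass. Gnaq, encoding the Gq alpha subunit, was at 85.0 ± 7.36 and 78.1 ± 3.50 CPM under vehicle and Norrin (SD, n = 4 each). Nos3, encoding endothelial nitric oxide synthase, had means of 2021 ± 39.1 CPM in vehicle and 1966 ± 119 CPM in Norrin libraries (log2 −0.04, 95% interval −0.11 to 0.03; edgeR adjusted p = 0.776). The G protein genes Gnai2 and Gnas were at 0.01 and −0.0025 on the log2 scale (edgeR adjusted p = 0.956 and 0.9902). Plcb1, a phospholipase C gene named after its values were seen, had no overlap between groups, at 116 ± 7.12 and 132 ± 8.24 CPM (SD, n = 4 each), and did not pass (0.20 ± 0.06 on the log2 scale, SE; edgeR adjusted p = 0.0961).

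**Figure D5:**
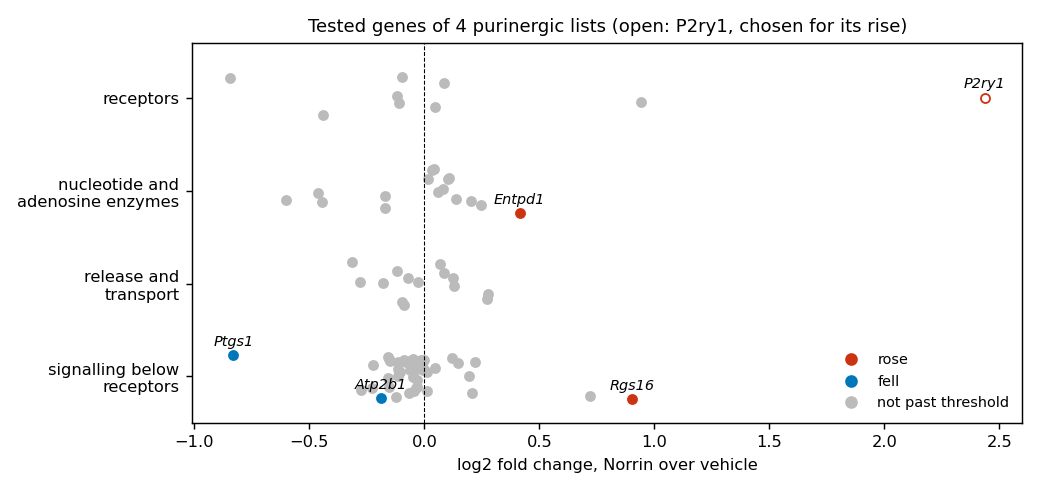
Log2 fold change of Norrin over vehicle (x axis) for the tested genes of 4 purinergic lists (rows, points spread vertically for visibility), with genes past the edgeR threshold coloured and named, and P2ry1 open. Entpd1 and Rgs16 lie to the right of 0 at 0.41 and 0.90, and Ptgs1 and Atp2b1 to the left.

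The genes whose log2 CPM over the 8 libraries was most like that of P2ry1, by Pearson correlation, were Npnt (0.996), Pcsk6 (0.984), Dock4 (0.984), Ccdc88a (0.983) and Sgip1 (0.981). All 5 were higher under Norrin with no overlap, by 1.97-, 1.31-, 1.36-, 1.62- and 1.40-fold, which are smaller folds than that of P2ry1. Because they were chosen for likeness to P2ry1, itself picked for its rise, this direction and lack of overlap largely follow from the choice. Of all tested genes, 3.43% had Norrin above with no overlap. For Sgip1 the authors' deposited table gives a fold of 1.02, from 6.99 to 7.12 RPKM, so its rise is in the counts but not in that RPKM. Npnt, encoding the matrix protein nephronectin, ran from 157 to 183 CPM under vehicle and from 337 to 350 CPM under Norrin. Ccdc88a, encoding the actin-binding protein girdin, ran from 195 to 232 CPM and from 317 to 376 CPM. The 8 points fall into the 2 treatment groups and share their libraries and depth, and the correlation is given as a description. In all, 111 of 13665 other genes had a correlation over 0.9 with P2ry1, and 81 had one below −0.9.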

How the data were processed

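Expression was measured by RNA-seq of ribosome-depleted total RNA in 4 vehicle and 4 Norrin libraries of bEnd.3 cells, prepared with a low-input kit and sequenced in paired ends, per the labels' protocols. The authors' table gives, per the file headers, unnormalised estimated counts for each of its genes in each library. It also holds, per the file headers, 1 RPKM value per group and a fold change. Where the vehicle RPKM was 1 or more, that fold differed from the ratio of the deposited RPKM values by a relative gap of up to 0.144. The submitters' processing notes name STAR with no version. Build, annotation, counter and strand setting were not given in the sources. Rows had a vehicle RPKM of at least 0.1, so a gene silent under vehicle would have none. Genes with no row are not analysed here, and 1 row without a gene name and without counts was left out.

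Counts were rounded to whole numbers, which changed 635 of 123616 by over 0.01. The test was edgeR 4.0.16 in R 4.3.3 (filterByExpr, TMM, robust quasi-likelihood, two-sided). P-values were Benjamini-Hochberg adjusted over 13666 genes, and 0.05 was the threshold. The fit was tested on simulated counts with the same dispersion for every gene. That run does not show how the fit behaves where the spread differs between genes. The members and lists were chosen with earlier results of these data known. Named are the listed genes, every pathway gene past the threshold, up to 4 more per list by deposited vehicle RPKM, and the 5 genes most like P2ry1, by log2 of CPM plus 0.5. Further list genes and overlapping genes were named after their values were seen. A gene that the rule takes is not reported here. The fold of RPKM over that of CPM was 0.993 to 1.03 for the 8 genes. Alternatives were DESeq2 size factors, no scaling, no filter, a filter of 10 counts in every library of a group, DESeq2 1.42.0, limma-voom (limma 3.58.1), the replicate number as a block, and each library left out. Replicate pairs all differed by more than sampling noise, with a chi-square of 5.51 to 14.6 per degree of freedom. Promoter windows are RefSeq's, GRCm38.p6. Overlaps of genes are from GENCODE on GRCm38.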

Additional observations from a re-analysis of the deposited data

Results flagged for a closer look

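In 3 of 58 groups of 4 libraries, over 29 genes, 1 library lay far from the other members of its group, where chance gives about 1 in 20. P2ry2 was at 20.9 CPM in Norrin replicate 1, beside 26.2 to 27.2 CPM in the other Norrin libraries. Pnp was at 34.4 CPM in vehicle replicate 4, beside 38.9 to 39.3 CPM. Nos3 was at 2143 CPM in Norrin replicate 4, beside 1887 to 1921 CPM.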

How the results depend on the processing

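Over 29 named genes and 15 alternatives, 407 of 435 log2 fold changes kept their direction and their side of the threshold. Among these, P2ry1 moved once by more than the SD of its log2 CPM over the Norrin libraries, to 2.60 without vehicle replicate 3. That SD leaves out the vehicle libraries, in which P2ry1 varied more. The 15 that changed sign all came from leaving out 1 library, in genes that did not pass either way: P2rx4 ran from −0.025 to 0.12, Adora2a from −0.29 to 0.17, Nme1 from −0.023 to 0.092, Gja1 from −0.10 to 0.031, Gnai2 from −0.0089 to 0.039 and Gnas from −0.018 to 0.017. Another 11, all of Ptgs1 and Atp2b1 with a library left out, lost the call, and 2, both of Gja5, gained it. With 1 library left out, genes called over the whole table numbered 206 to 452 beside 296, the highest without Norrin replicate 4. In the same fits 1 to 2 enzyme genes, 0 to 2 release and transport genes and 1 to 5 signalling genes were called. DESeq2 called 2 enzyme genes, Ak1 beside Entpd1.

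With the replicate block, 1 release gene was called, Gja5, at 0.26 (adjusted p = 0.00723 by edgeR), and 4 signalling genes, Plcb1 being the fourth. The block fit called 402 genes over the whole table, beside 296 without the block. Deviations of same-numbered libraries correlated at −0.03, 0.01, 0.04 and 0.09. Whether the numbers pair the samples is not given by the labels and cannot be settled by these values. P2ry6, Nt5e, Adora2a and P2rx5 rest on few counts and have wide intervals, and depth and replicate spread were not separated there.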
